A study of Oreochromis niloticus with 9 samples.

Results

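The Toll-like receptor (TLR) loci and the adaptor gene myd88 were examined in the liver transcriptome of GIFT, a farmed strain of Nile tilapia (Oreochromis niloticus). Members were chosen by name: every locus of the deposited expression table whose gene symbol was tlr followed by a number, or was myd88. This rule found 13 of the 37283 loci, of which 12 were TLR loci with 8 different symbols and 1 carried myd88. Only 17536 of the 37283 loci had a gene symbol, and receptors at loci without one could not be found. The 3 diets, fed for 8 weeks, were the C diet with 0% apple peel powder (APP), the APP_A diet with 0.2% APP and the APP_H diet with 0.8% APP. GEO's labels write APE_A and APE_H for APP_A and APP_H. All fish were juveniles of the same strain on the same basal feed, and cellulose in the feed made up for the added APP. Each diet had 3 libraries, and each library was made from pooled liver RNA of several fish of a single tank, so n = 3 pools per group and differences between single fish were not measured. Sex was not given, and a bulk liver library holds hepatocytes together with blood, pancreatic and immune cells.

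TLRs are membrane receptors of innate immunity that bind conserved parts of microbes. Receptors at the cell surface bind mainly parts of the bacterial wall and flagellum, and receptors in endosomes bind nucleic acids. Nearly all of them pass the signal on through the adaptor MyD88 to IRAK kinases, TRAF6 and nuclear factor kappa B (NF-kB), while TLR3 uses the adaptor TICAM1. Fish carry TLR types that mammals lack, among them TLR18, TLR21 and TLR22. In the liver, TLRs are known from resident immune cells and the lining of the vessels as well as from hepatocytes.

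Values are FPKM, in which fragments are scaled to transcript length and to the mapped reads of the library, so levels can be compared between genes. Read depth per locus is unknown, since FPKM carry no read numbers, and values come without counting intervals. The library APP_H3 stood apart from the others. Loci that reached 1 FPKM in 3 or more libraries were kept for testing, which left 20575, and across them its Pearson's r with other libraries was 0.410 to 0.557, against 0.624 to 0.756 for all other pairs. Of 34 hepatocyte marker loci, 34 were lower in APP_H3 than their median over the remaining 8 libraries. The mean of log2(FPKM + 1) over this list was 4.57 in APP_H3, against 8.27 to 9.23 elsewhere. For 9 erythroid loci it was 7.01, against 3.29 to 5.46 elsewhere. The results on members are therefore given with and without APP_H3. In such bulk libraries, fewer cells of a type and less RNA per cell cannot be told apart.

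Among the 12 TLR loci, tlr3, TLR5 and a tlr22 locus had the highest levels in the liver. The table holds tlr22 at 4 loci, called copies 1 to 4 in the order of their identifiers. The only copy with at least 1 FPKM in every library was copy 2 (XLOC_027816, scaffold GL831343.1 from 430134 to 448952). Summed over the 12 loci, the FPKM was 25.7 to 36.3 in C, 24.1 to 40.0 in APP_A and 27.9 to 46.3 in APP_H. In the 8 libraries other than APP_H3, tlr3, TLR5 and tlr22 copy 2 together made up between 77.9% of this sum in APP_H2 and 93.5% in APP_A2. In APP_H3 they made up 31.6%, and tlr2 with tlr9 made up 61.97%, against 1.08% to 12.6% in the other libraries. The total in APP_H3, 27.9, lay within the range of the others. On the FPKM scale this library thus differed in which receptors made up the sum rather than in the sum itself. The FPKM of all loci summed to 1226503 in APP_H3, against 1941494 to 2631532 elsewhere, and TLR loci as a share of that sum were not examined.

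**Figure D1:**
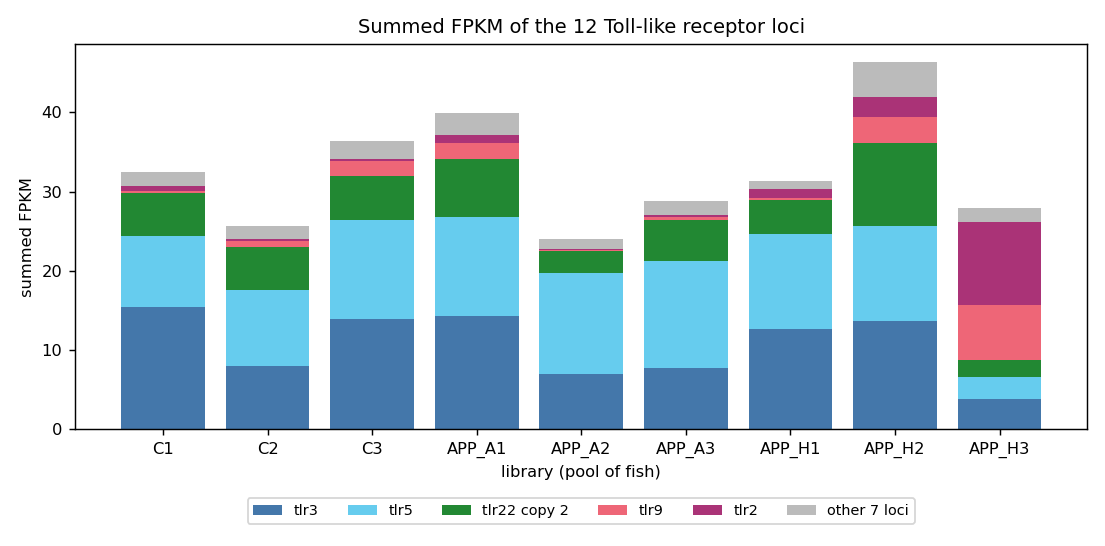
Summed FPKM of the 12 TLR loci in each library, ordered by APP level from C to APP_H, with a colour for each of the 5 TLR loci kept for testing and grey for the other 7. In APP_H3 tlr2 and tlr9 made up 61.97% of the sum, against 1.08% to 12.6% in the other 8 libraries.

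The gene tlr3 (XLOC_017535, GL831212.1 from 2643101 to 2650539) encodes an endosomal receptor for double-stranded RNA. Its FPKM was 15.4, 8.01 and 13.9 in the C libraries, 14.3, 7.04 and 7.70 in APP_A and 12.6, 13.7 and 3.82 in APP_H. The groups overlapped, and APP_H3 was the lowest library. Its median rank was at the 85.2 percentile of all loci of a library, the highest of the 13 members. TLR5 (XLOC_005231, GL831143.1 from 8095567 to 8123594) encodes the receptor for bacterial flagellin, of which a soluble form made in the liver is known from rainbow trout. The table does not separate a soluble from a membrane form. Its FPKM was 8.96, 9.51 and 12.5 in C, 12.4, 12.7 and 13.6 in APP_A and 12.0, 12.0 and 2.78 in APP_H. Without APP_H3 it was the steadiest of the 6 members kept for testing, with an SD of 0.19 on the log2(FPKM + 1) scale over 8 libraries, against a median SD of 0.53 over all genes kept.

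The receptor encoded by tlr22 occurs in fish and binds double-stranded RNA at the cell surface, as is known from pufferfish. Copy 2 had an FPKM of 5.43, 5.52 and 5.61 in C, 7.41, 2.72 and 5.11 in APP_A and 4.28, 10.4 and 2.21 in APP_H. The C pools were nearly equal, and the pools of APP_A and of APP_H lay on both sides of them. Copy 3 (XLOC_027817) is listed with the same coordinates as copy 2, so the authors' estimation could have split reads between them. It was listed at 0 in C2, C3 and APP_H1 and reached its highest FPKM, 1.86, in APP_A1. Copy 1 (XLOC_003157, GL831138.1 from 6698156 to 6729912) had 0.26 to 1.38 FPKM, with the highest value in APP_H2, and copy 4 (XLOC_029178, GL831369.1 from 739742 to 744210) was listed at 0 in each of the 9 libraries.

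The gene tlr9 (XLOC_015463, GL831196.1 from 3271315 to 3276168) encodes an endosomal receptor for unmethylated CpG DNA. Its FPKM was 0.29, 0.75 and 1.78 in C, 1.98, 0.15 and 0.38 in APP_A and 0.27, 3.39 and 6.92 in APP_H. The pools of each diet were widely spread, and APP_H1 lay below all C pools while APP_H2 and APP_H3 lay above them. The gene tlr2 (XLOC_026188, GL831313.1 from 1081152 to 1100130) encodes a cell-surface receptor that binds bacterial lipoproteins in mammals. It had an FPKM of 0.58, 0.22 and 0.28 in C, 0.97, 0.11 and 0.25 in APP_A and 1.08, 2.44 and 10.4 in APP_H. Each APP_H pool lay above each pool of the other diets, with APP_H1 only just above APP_A1. Of all genes kept for testing, 5.91% had the APP_H pools above the C pools without overlap, and 7.45% above the APP_A pools. As tlr2 was kept for testing only through its APP_H libraries, nothing is read from this order. In APP_H3 tlr2 was 24.1 times the median of the other 8 libraries and tlr9 was 12.2 times it. There TLR5 was at 0.227 times, tlr3 at 0.290 times and tlr22 copy 2 at 0.404 times their medians. These ratios are of FPKM, and shares of each library's summed FPKM were not examined.

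The remaining receptors were near the lower limit of the table. Of the single-stranded RNA receptor tlr7, the table holds a pair of neighbouring loci, copy 1 (XLOC_026057, GL831311.1 from 1118572 to 1121739) and copy 2 (XLOC_026058, GL831311.1 from 1123296 to 1149154). Copy 1 had at most 0.48 FPKM, in APP_H2. Copy 2 had 0.04, 0 and 0.03 FPKM in C, 0.02, 0.04 and 0.01 in APP_A and 0.14, 0.17 and 0.12 in APP_H, so the APP_H pools did not overlap with the others, also without APP_H3, but at levels of a few hundredths of an FPKM to 0.17. Among the genes kept, which do not include this locus, the APP_H pools lay above the C pools without overlap for 5.91% (10.6% without APP_H3) and above the APP_A pools for 7.45% (13.1%). In a fit without the filter on low values its log2 fold change was 0.16 against either of the other diets, with adjusted p values from limma of 0.636 (vs. C) and 0.416 (vs. APP_A). The gene tlr18 (XLOC_018313, GL831220.1 from 2274491 to 2279496), a fish relative of the tlr2 family, was listed at 0 in APP_A1 and APP_A2 and had at most 0.98 FPKM, in C3. The gene tlr21 (XLOC_032370, GL831458.1 from 459773 to 462712), a CpG DNA receptor in chicken and zebrafish, had 0.16 FPKM in APP_H3 to 1.27 FPKM in C2. Of the 13 members, 8 had an FPKM above 0 in every library, and 4 of those, tlr3, TLR5, tlr22 copy 2 and the myd88 locus, had at least 1 FPKM in every library.

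The adaptor myd88 was carried by a locus that the table names cry-dash and myd88 together (XLOC_002906, GL831138.1 from 401320 to 410837). In the RefSeq annotation of another tilapia assembly (O_niloticus_UMD_NMBU) these genes are neighbours, and a value at this locus can stem from either. Its FPKM was 6.27, 4.48 and 4.09 in C, 9.29, 5.82 and 5.41 in APP_A and 6.45, 12.4 and 5.14 in APP_H. APP_H2 was the highest library and APP_A1 the second highest, as they were also for tlr22 copy 2. In APP_H3 the FPKM of the locus was at 0.850 times the median of the remaining libraries. The FPKM of all loci summed to less in APP_H3 than elsewhere, and the locus as a share of that sum was not examined.

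**Figure D2:**
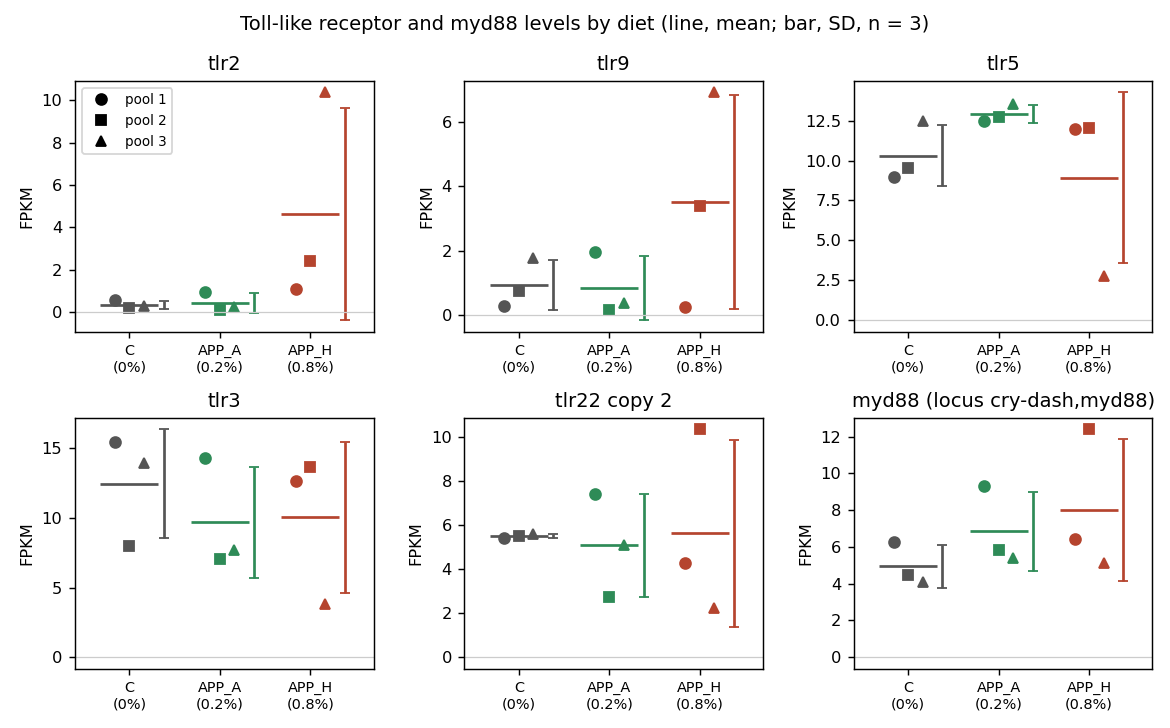
FPKM of the 6 members kept for testing (vertical axes, different for each panel, with a grey line at 0) in the 3 pools of each diet, by APP level, with the group mean as a line and the SD as a bar beside it. The tlr2 points of APP_H, 1.08, 2.44 and 10.4, lie above all others, but tlr2 was kept for testing only through these points. For TLR5 and tlr3 the lowest point is APP_H3.

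Diets were compared by limma, fitted once to the 9 libraries on log2(FPKM + 1) over the 20575 genes kept, with Benjamini-Hochberg adjustment, and log2 fold changes are on this scale, which understates the change of genes with low values. Of the 13 members, 6 were kept. The other 7 were below an FPKM of 1 in more than 6 libraries. The gene tlr2 was kept only because its 3 APP_H libraries were above 1, so it had to differ between groups to be tested. The study also selected tlr2 on these same libraries, so its values are not independent evidence.

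In APP_A vs. C, 0 of the 6 members had an adjusted p under 0.05 with a |log2 fold change| of at least 1, a threshold that 0.0972% of all genes tested passed. At an unadjusted p under 0.05 there were also 0 of 6, against 3.4% of all genes. The groups did not overlap for 0 of 6 in either direction, against 4.69% of all genes with APP_A higher and 6.34% with APP_A lower. The myd88 locus had the largest positive log2 fold change, 0.38 (standard error 0.37), followed by TLR5 at 0.31 (0.49). The value was 0.05 (0.59) for tlr2, -0.14 (0.70) for tlr9, -0.18 (0.49) for tlr22 copy 2 and -0.35 (0.52) for tlr3. The adjusted p from limma was 1.0 for each. For TLR5 the groups only just overlapped, since the lowest APP_A pool was at 12.44 FPKM and the highest C pool at 12.46. The log2 fold change of tlr2 was -0.20 without APP_A1 and -0.02 without C2, and that of tlr22 copy 2 was 0.14 without APP_A2, so these signs depended on single libraries. For tlr9 the sign also turned, with values of 0.16 without C3, 0.14 without APP_A2 and 0.0052 without APP_A3.

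In APP_H vs. C, 0 of the 6 members passed the adjusted threshold, which 0.122% of all genes passed. At an unadjusted p under 0.05 there were 0 of the 5 members other than tlr2, against 7.58% of all genes. That of tlr2 was 0.022, from which nothing is read, since tlr2 was kept through its APP_H libraries. Its log2 fold change was 1.68 (standard error 0.59) with an adjusted p of 0.589 from limma. Group means were 4.63 ± 5.02 FPKM in APP_H and 0.36 ± 0.19 FPKM in C (SD, n = 3 each). Without APP_H3 the log2 fold change of tlr2 was 0.99 (0.36), with means of 1.76 in APP_H and 0.36 in C and an adjusted p of 0.585 from limma. It was 2.21 without APP_H1, and over all alternatives its adjusted p ranged from 0.186 to 0.909. The APP_H pools lay above the C pools without overlap for 0 of the 5 members other than tlr2, against 5.91% of all genes. They lay below them for 0 of these 5, against 7.02%. Without APP_H3, 0 of 6 passed the adjusted threshold, against 0.267% of all genes, and 0 of the 5 had an unadjusted p under 0.05, against 7.62%.

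The other members differed in direction in APP_H vs. C. The log2 fold change was 0.94 (standard error 0.70) for tlr9, 0.53 (0.37) for the myd88 locus, -0.18 (0.49) for tlr22 copy 2, -0.38 (0.49) for TLR5 and -0.40 (0.52) for tlr3. Adjusted p values from limma were between 0.706 and 0.913. Without APP_H3 the values of tlr22 copy 2, TLR5 and tlr3 became 0.25 (0.44), 0.21 (0.23) and 0.12 (0.40), so their negative values rested on that library. The value of tlr9 was 0.36 without APP_H3 and 1.68 without APP_H1. The myd88 locus stood at 0.77 (0.36) without APP_H3, with an adjusted p of 0.706 from limma. Its remaining APP_H pools, 6.45 and 12.4 FPKM, were then above the C pools, of which the highest had 6.27. Beside tlr2 this locus alone, 1 of 5, was thus higher without overlap, against 10.6% of all genes without APP_H3. Lower without overlap were 0 of these 5, against 11.8%. Without APP_H2 the log2 fold change of the myd88 locus was 0.20.

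In APP_H vs. APP_A, 0 of the 6 members passed the adjusted threshold, against 0.136% of all genes, and 0 of the 5 members other than tlr2 had an unadjusted p under 0.05, against 10.9% of all genes. The comparison shares the APP_H libraries with APP_H vs. C. Beside tlr2, 0 of 5 members were higher in APP_H without overlap, against 7.45% of all genes. Without APP_H3 this was again 0 of 5, against 13.1% of all genes, and 1 of 5 was lower, TLR5, against 11.0%. In that fit 0 of 6 members passed the adjusted threshold, against 0.287%, and 0 of the 5 had an unadjusted p under 0.05, against 9.8%. The log2 fold change of tlr2 was 1.63 (standard error 0.59) with an adjusted p of 0.411 from limma, and 0.94 (0.36) with an adjusted p of 0.470 without APP_H3. TLR5 had -0.69 (0.49) with an adjusted p of 0.574 from limma, and its APP_H pools lay below the APP_A pools, a pattern found for 7.06% of all genes. Without APP_H3 its value was -0.10 (0.23), although 12.00 and 12.01 FPKM in APP_H were still below the lowest APP_A pool at 12.44 FPKM. The values were 1.07 (0.70) for tlr9, 0.15 (0.37) for the myd88 locus, 0.0031 (0.49) for tlr22 copy 2 and -0.05 (0.52) for tlr3. Without APP_H3 that of tlr9 was 0.49 and that of tlr3 was 0.47. That of tlr3 was also positive, 0.24, without APP_A1, that of the myd88 locus was -0.18 without APP_H2, and that of tlr22 copy 2 was -0.48 without APP_H2 and -0.31 without APP_A2.

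**Figure D3:**
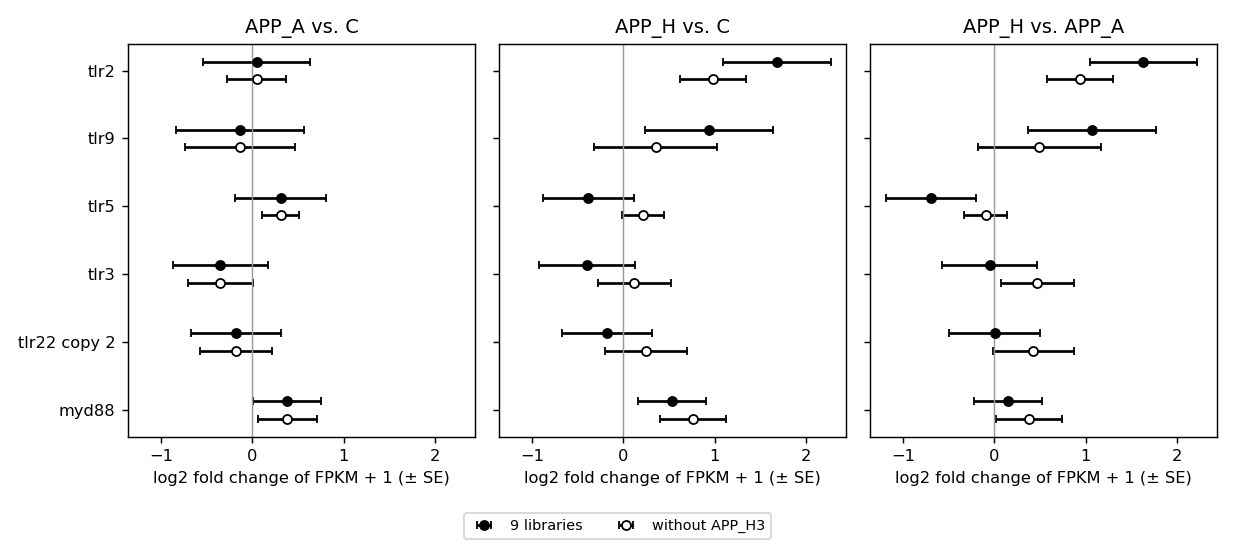
Log2 fold change (horizontal axes, with standard error bars) of the 6 tested members in the 3 comparisons, with all 9 libraries (filled) and without APP_H3 (open). In APP_H vs. C the points of TLR5, tlr3 and tlr22 copy 2 cross from negative to positive without APP_H3, while tlr2 moves from 1.68 to 0.99.

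Across the 3 diets, tlr2 was put to an exact permutation test over the 280 groupings of the libraries, with 0.0036 as the smallest possible p. This exact permutation test gave p = 0.0357 with all 9 libraries and p = 0.0786 without APP_H3. The exact permutation test gave p = 0.0679, 0.0714 and 0.0786 without C1, C2 and C3. Without an APP_A library the exact permutation test gave p = 0.05 to 0.0679. Without APP_H1 or APP_H2 the exact permutation test gave p = 0.0321 and 0.0357. As tlr2 was selected on these libraries and kept through its APP_H pools, these values describe the libraries and are no evidence of a difference between diets.

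Genes of immune cells were examined beside the receptors, since TLRs are also expressed by leukocytes. A list of general leukocyte genes had 10 loci in the table and 8 kept, among them ptprc, which encodes CD45. Its mean log2(FPKM + 1) ranged over 4.28 to 4.57 in C and 3.56 to 4.55 in APP_A, and the APP_H pools stood at 4.24, 5.53 and 5.77. The FPKM of ptprc was 27.7, 28.7 and 34.95 in C, 31.9, 16.6 and 18.0 in APP_A and 24.5, 110.4 and 76.7 in APP_H. APP_H2 and APP_H3, which had the highest levels of tlr2 and tlr9, thus also had the highest levels of leukocyte genes, and the part of leukocytes in the tlr2 result was not tested. In APP_H3, 8 of the 8 kept loci were above their median over the remaining libraries. As a percent of the FPKM of ptprc, a ratio chosen after the values were seen, tlr2 was 2.095, 0.766 and 0.801 in C, 3.04, 0.662 and 1.39 in APP_A and 4.40, 2.21 and 13.5 in APP_H. On this scale APP_H overlapped with APP_A, and APP_H2 was close to C1. Since tlr2 was kept through its APP_H pools, nothing is read from the order of the groups.

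The B-cell list had 8 loci with 6 kept, and its mean log2(FPKM + 1) was 1.88, 1.68 and 2.52 in C, 2.72, 1.05 and 1.47 in APP_A and 2.23, 2.93 and 4.78 in APP_H. The 4 libraries in which tlr9 reached 1 FPKM, namely C3, APP_A1, APP_H2 and APP_H3, were those with the 4 highest values of this list. The same 4 libraries were also highest for general leukocytes, at 4.55 to 5.77, with at most 4.29 elsewhere. For thrombocytes they were highest too, at 2.79 to 3.99, with at most 2.61 elsewhere, so the match was not particular to B cells. In APP_H3, 6 of the 6 kept loci of the B-cell list were above that median, and the part of B cells in the tlr9 values was not tested. Of its defining genes, cd79a, which encodes a chain of the B-cell receptor complex, reached 57.8 FPKM in APP_H3, with 0.13 to 10.2 elsewhere, and pax5 was at 0 in 6 libraries and at 1.0 in APP_H3. The macrophage list had 26 loci with 20 kept and ranged over 3.55 to 3.72 in C and 3.37 to 3.75 in APP_A, and the APP_H pools stood at 3.88, 4.41 and 3.67. Of these loci, 11 were above that median in APP_H3 and 9 below. The list was highest in APP_H2, where tlr22 copy 2 and the myd88 locus were highest. So were the lists of T cells, at 2.96, and of endothelium, at 2.90. The macrophage gene timd4 was at 0 in every library. Of the further lists, that of granulocytes (11 loci, 7 kept) was lowest in APP_H3 at 3.34, with 4.36 to 4.94 elsewhere, although 3 of its kept loci were above their median there and 4 below. Both LYZ loci, for lysozyme, were lowest there at 112.3 and 40.2 FPKM, while mpx at 6.27 and mmp9 at 5.28 FPKM were highest there. The thrombocyte list (10 loci, 8 kept) was highest there at 3.99, with 2.36 to 3.02 elsewhere. Of its kept loci 6 were above their median there and 2 below, among the latter f5 at 11.5 FPKM, with 145.8 to 278.8 elsewhere. The exocrine pancreas list (10 loci, 10 kept) was lowest in APP_H3 at 4.81, with 6.83 to 10.1 elsewhere. List means in APP_H3 within the range of the remaining libraries were found for T cells (8 loci, 7 kept), with 1.51 to 2.96, and for endothelium (12 loci, 8 kept), with 2.06 to 2.90. Of the kept T-cell loci, 7 were above their median in APP_H3 and 0 below. Of the kept endothelial loci, 2 were above and 6 below, among the latter kdrl at 1.32 FPKM, with 4.63 to 6.51 elsewhere. The gene mrc1a, also in the macrophage list, was above at 188.7 FPKM.

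**Figure D4:**
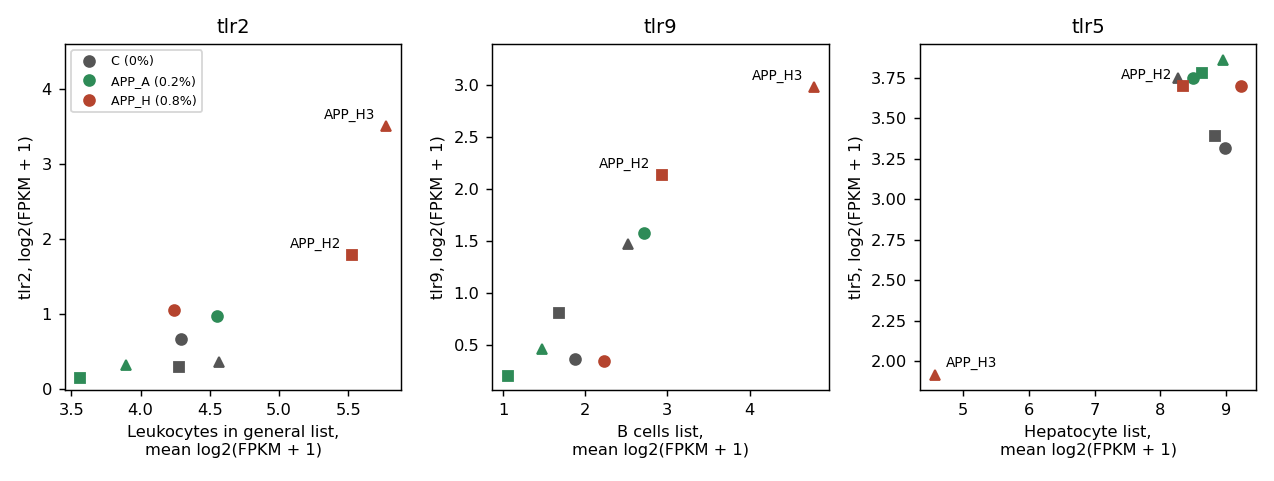
Levels (vertical axes, log2(FPKM + 1)) in the 9 libraries of tlr2 against the general leukocyte list (left), tlr9 against the B-cell list (middle) and TLR5 against the hepatocyte list (right), each list as its mean log2(FPKM + 1) on the horizontal axis, coloured by diet, with circles, squares and triangles for pools 1, 2 and 3. APP_H3 lies at the upper right of the left and middle panels, and APP_H2 has the next highest value on both axes of each. In the right panel APP_H3 lies alone at the lower left, with a hepatocyte value of 4.57.

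The genes whose levels ran most like tlr2 were looked up among the 9533 other kept loci with a gene symbol, by Pearson's r of log2(FPKM + 1) over the 9 libraries. They were p2ry8, a receptor of lymphocytes (r = 0.989, Spearman's rho = 0.917), fam46ab (0.984 and 0.996), zgc:153184 (0.982 and 0.933), si:ch211-57i17.1 (0.977 and 0.867) and blnk, an adaptor of the B-cell receptor that is also in the B-cell list (0.977 and 0.950). The gene blnk had an FPKM of 3.34, 10.1 and 38.5 in APP_H, against 1.97, 1.35 and 2.87 in C. In APP_A it had 5.11, 1.01 and 1.22. As blnk was picked for its likeness to tlr2, nothing is read from this order. Without APP_H3, the 5 nearest were fam46ab (r = 0.990), c6, a component of terminal complement (0.986), stk17b (0.984), slc7a8a (0.980) and cbl (0.957). The fam46ab locus was in both lists, whereas c6 ran like tlr2 in 8 libraries only, with 3.65 FPKM in APP_H3 and at least 50.98 in each of the remaining libraries. These r values are the highest of many and share the libraries and their scaling, so they are descriptions. For the myd88 locus the nearest gene over 9 libraries was ctsba, which encodes the lysosomal protease cathepsin B (r = 0.966, rho = 0.933), followed by capzb (0.929 and 0.933), vwa1 (0.925 and 0.667), c1qtnf5 (0.894 and 0.817) and tmem45a (0.868 and 0.917). The FPKM of ctsba was 86.2, 195 and 63.4 in APP_H, against 74.1, 48.9 and 64.4 in C. In APP_A it was 123.4, 76.3 and 66.65. Without APP_H3, ctsba was second (r = 0.965) after leng9 (0.976), and rasgrp4 (0.938), si:ch211-57i17.1 (0.936) and nfatc2ip (0.933) followed.

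How members ran together depended on APP_H3. Over the 9 libraries, tlr2 had r = 0.840 (Spearman's rho = 0.633) with tlr9 and r = -0.830 (rho = -0.550) with TLR5, and without APP_H3 r was 0.631 and 0.046. The myd88 locus had r = 0.237 with tlr2 over 9 libraries and 0.884 over the 8 without APP_H3, and tlr22 copy 2 had r = 0.0392 with tlr9 over 9 and 0.868 over 8. With 8 or 9 pools that share their normalization, these values describe the libraries only.

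A list of further genes of the TLR pathway was examined in the same fit, and held 70 loci in the table, of which 57 were kept. In APP_A vs. C, 0 of 57 passed the adjusted threshold, against 0.0972% of all genes. An unadjusted p under 0.05 was found for 0, against 3.4%. The log2 fold change was positive for 25, against 44.9% of all genes, with a median of -0.03 over the 57 and -0.05 over all genes. In APP_H vs. C, 0 of 57 passed the adjusted threshold, against 0.122% of all genes. An unadjusted p under 0.05 was found for 6, against 7.58%. The APP_H pools lay above the C pools without overlap for 7 (11 without APP_H3), against 5.91% (10.6%) of all genes. They lay below them for 3 (7 without APP_H3), against 7.02% (11.8%). The log2 fold change was positive for 41 of the 57, against 48.3% of all genes, with a median of 0.23 over the list and -0.03 over all genes. Without APP_H3 these values were 36 of 57, against 49.8% of all genes, with a median of 0.13 and one of -4.6e-04 over all genes, and 5 had an unadjusted p under 0.05, against 7.62%. In APP_H vs. APP_A, 0 of 57 passed, against 0.136% of all genes, and 8 had an unadjusted p under 0.05, against 10.9%. A positive value was found for 38, against 51.0% of all genes, with a median of 0.32, against 0.02 over all genes. Without APP_H3, 4 had an unadjusted p under 0.05, against 9.8% of all genes, and there were 34 positive values, against 53.2% of all genes, with a median of 0.16, against 0.05. The counts of 0 at the adjusted threshold held in each alternative.

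Among adaptors, tirap, which bridges surface TLRs to MyD88, was below 1 FPKM in every library, and sarm1, an inhibitory adaptor, was listed at 0 in all 9. The adaptor gene pik3ap1, which links TLRs to PI3 kinase, had an FPKM of 2.24, 5.77 and 6.38 in APP_H, against 2.19, 2.05 and 2.92 in C. Its log2 fold change was 0.70 (standard error 0.43), with an adjusted p of 0.691 from limma.

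Among genes for chaperones and transport of the receptors, the most abundant was hsp90b1, the endoplasmic chaperone that folds TLRs. It was lower in each APP_H pool than in each C pool, as were 7.02% of all genes. Its FPKM was 32.1, 35.0 and 14.7 in APP_H, against 211.5, 56.0 and 180.4 in C. Its log2 fold change in APP_H vs. C was -2.29 (standard error 0.74) with an adjusted p of 0.539 from limma. Without APP_H3 it was -1.91 (0.78), with an adjusted p of 0.643 from limma. The gene unc93b1, whose product carries nucleic-acid-sensing TLRs to endosomes, had an FPKM of 9.01, 7.72 and 14.4 in C, 8.54, 7.27 and 7.63 in APP_A and 11.5, 18.95 and 9.18 in APP_H. RAB7A, of late endosomes, had 17.7 to 28.2 FPKM over the 9 libraries, and slc15a4, a lysosomal transporter needed for TLR7 and TLR9 signals in mice, had 0.60 to 2.95.

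Of 26 kept kinase and ubiquitin ligase loci, 18 had a positive log2 fold change in APP_H vs. C, against 48.3% of all genes, and without APP_H3 15 did, against 49.8%. The first kinases after MyD88 were IRAK4, with an FPKM of 2.51 to 10.8 over the 9 libraries, and irak1, with 1.22 to 2.96. IRAK4 had 9.44, 10.8 and 10.5 FPKM in APP_A and 9.25, 6.79 and 4.99 in C, so these groups did not overlap, a pattern that 4.69% of all genes showed in that direction, and its log2 fold change was 0.52 (0.42) with an adjusted p of 1.0 from limma. A ube2v1 locus (XLOC_002727), for a partner of the ubiquitin-conjugating enzyme that works with TRAF6, had 27.4, 68.0 and 75.9 FPKM in APP_H, against 20.9, 22.5 and 27.2 in C. Its log2 fold change was 1.12 (0.47), with an adjusted p of 0.647 from limma. The ligase gene traf3 had 2.94, 6.43 and 12.7 FPKM in APP_H, against 2.90, 2.40 and 4.78 in C, and ikbkg, for the regulatory subunit of the IkB kinase, had 10.95 to 24.8 over the 9 libraries. The kinase gene map3k8 had 6.23, 16.1 and 12.1 FPKM in APP_H, against 6.79, 5.46 and 7.10 in C.

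Of the 10 kept inhibitors, 9 had a positive log2 fold change in APP_H vs. C, against 48.3% of all genes, with a median of 0.46, against -0.03. Without APP_H3 there were 8, against 49.8%, with a median of 0.32. The exception with all libraries was sigirr. The gene sigirr, for a receptor-like inhibitor of TLR signals, was lower in APP_H than in C without overlap, as were 7.02% of all genes. Its FPKM was 14.2, 10.3 and 3.07 in APP_H, against 21.7, 18.0 and 19.3 in C. Its log2 fold change was -1.22 (standard error 0.56), with an adjusted p of 0.668 from limma, and -0.65 without APP_H3. The gene nfkbiaa, an inhibitor of NF-kB that NF-kB itself induces, had 24.1, 51.0 and 84.2 FPKM in APP_H, against 14.9, 17.2 and 28.6 in C, and its value of 1.23 (0.53) on the log2 scale had an adjusted p of 0.661 from limma. The gene tnfaip3, for the ubiquitin-editing enzyme A20, had 2.02, 5.70 and 2.78 FPKM in APP_H, against 1.32, 1.08 and 1.22 in C, and had the lowest adjusted p of the inhibitors in this comparison, 0.548 from limma. The genes tnfaip3, tollip, irak1, tirap, sarm1, tnfa, tnfb and il10 were named after their values were seen. The gene tollip had 10.5 to 16.4 FPKM in the 9 libraries, tnip1 had 16.8 to 43.3, and socs1b had 3.08 to 40.5 with the highest values in APP_H3, C3 and APP_H2.

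Among the transcription factors at the end of the pathway, irf1b had the highest mean, with an FPKM of 33.5, 105 and 315 in APP_H, against 32.6, 28.8 and 221 in C. The NF-kB subunit rela had 22.6, 21.7 and 23.0 FPKM in APP_H, against 18.7, 16.6 and 14.4 in C, and nfkb2 had 12.1, 19.3 and 55.4, against 5.91, 6.95 and 17.4. The log2 fold change was 0.42 (standard error 0.29) for rela and 1.299 (0.62) for nfkb2, with adjusted p values of 0.704 and 0.668 from limma, and without APP_H3 it was 0.41 and 0.70. The interferon regulatory factor irf8, also a gene of the macrophage list, had 6.32, 25.2 and 12.98 FPKM in APP_H, against 5.93, 5.56 and 8.42 in C. The gene irf5 was lower in APP_A than in C without overlap, as were 6.34% of all genes. Its FPKM was 2.80, 1.49 and 2.15 in APP_A and 2.86, 4.47 and 3.36 in C. On the log2 scale its difference was -0.54 (0.32), with an adjusted p of 1.0 from limma.

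The list of genes that TLR signals induce, mostly cytokines, had 23 symbols, for which 7 loci were matched by name, and 2 of these were kept. The chemokine gene ccl19a.1 had an FPKM of 38.5, 75.3 and 64.4 in C, 64.3, 26.6 and 59.2 in APP_A and 26.3, 102 and 12.8 in APP_H. The gene ptgs2b, for an inducible cyclooxygenase, had 0.42 to 2.29 FPKM over the 9 libraries. The tumour necrosis factor gene tnfa was at 0 to 2.42 FPKM, with the highest value in APP_H2, and tnfb at 0.19 to 2.71, with the highest in APP_H3. The gene il10 was listed at 0 in 3 libraries and had at most 1.59 FPKM, in C2.

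**Figure D5:**
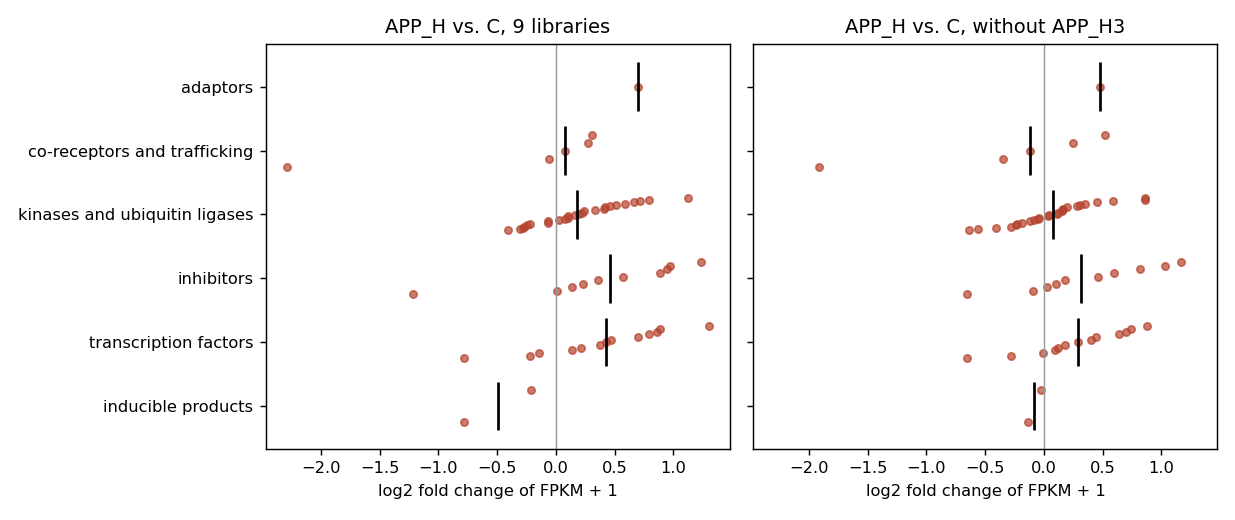
Log2 fold change in APP_H vs. C (horizontal axes) of the 57 kept genes of the TLR pathway by role, with all 9 libraries (left) and without APP_H3 (right), and the median of each role as a line. With all libraries 41 of 57 points lie above 0 and without APP_H3 36 of 57, and the lowest point in both panels is hsp90b1.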

How the data were processed

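Liver RNA of GIFT was sequenced in 9 libraries, 3 per diet. The authors deposited FPKM per locus and library, made by TopHat 2 and Cufflinks per the paper's methods, while the submitters' processing notes name HISAT2 2.0, StringTie 1.3.0 and Bowtie 0.12.2 and a mouse genome build. The scaffold names of the table are those of tilapia, and positions are given on them, counted from 1. The tilapia build is not given in the sources used here. The FPKM were used as deposited. Members were matched to lower-cased symbols, with the copy notes removed.

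Values were analysed as log2(FPKM + 1) with limma 3.58.1 in R 4.3.3, with 1 mean per group and an intensity trend. DE genes needed an adjusted p under 0.05 and a |log2 fold change| of at least 1, as in the methods of the paper, whose Cuffdiff test needs reads. Simulated data with known changes were used to test the limma step. The members, gene lists, tests and alternatives were chosen with earlier results of these data known. Each member was given, and of each role of the pathway the genes with the highest mean FPKM and the largest log2 fold changes, with others named for comparison. Alternatives were pseudocounts of 0.1 and 0.01, no filter, a minimum of 5 FPKM, median-ratio scaling, quantile normalization, fits of 2 groups, a replicate block, no trend and each library left out, with the set of genes kept unchanged. Labels do not say that replicate numbers mark shared tanks or days. Of the 9 symbols, 6 were in the RefSeq gene table. Python 3.11.15 with matplotlib 3.10.9 drew the figures. P values set differences between group means against the spread between pools, not between single fish.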

Additional observations from a re-analysis of the deposited data

How the results depend on the processing

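In each of the 18 alternatives and each of the 3 comparisons, 0 members and 0 genes of the TLR pathway list passed the adjusted threshold of limma, and with 5 FPKM as the minimum tlr2 and tlr9 were not tested. Over all genes 20 passed in APP_A vs. C (42 with a pseudocount of 0.01, 37 with only the 2 groups compared, 12 to 26 with a library left out), 25 in APP_H vs. C (38 with a pseudocount of 0.01, 18 to 55 with a library left out) and 28 in APP_H vs. APP_A (53 and 56 with the same settings, 5 to 59 with a library left out). With the replicate block these counts were 7, 8 and 3. Replicate numbers were not shown to pair the pools, since deviations of pools with the same number had r from -0.0695 to 0.126, and 4 of 9 libraries correlated best with their own number. The sign of tlr2 in APP_A vs. C turned to -0.0241 and -0.1214 with pseudocounts of 0.1 and 0.01. That of tlr22 copy 2 in APP_H vs. APP_A turned to -0.0205 and -0.0240 with these pseudocounts and -0.12 with quantile normalization. With a library left out, log2 fold changes that turned sign spanned the following ranges. In APP_A vs. C they were -0.55 to 0.16 for tlr9, -0.20 to 0.22 for tlr2 and -0.45 to 0.14 for tlr22 copy 2. In APP_H vs. C they were -0.68 to 0.21 for TLR5, -0.68 to 0.12 for tlr3 and -0.66 to 0.25 for tlr22 copy 2. In APP_H vs. APP_A they were -0.18 to 0.38 for the myd88 locus, -0.34 to 0.47 for tlr3 and -0.48 to 0.43 for tlr22 copy 2. The exact permutation test of tlr2 spanned p = 0.0321 to 0.0786. As tlr2 was selected on these libraries and kept through its APP_H pools, nothing is read from this range. The causes were not tested. Depth per locus is unknown, so values near 0 cannot be told from absence, and 3 pools per diet limit all comparisons.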
